A study of Mus musculus with 6 samples.

Results

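Cell division leaves a set of transcripts that rise and fall with the cycle, and 42 such genes were followed here in monocytes of the mandible and the femur. The genes were given as a fixed list of symbols, of which 17 act in S phase or at the entry to it and 25 in the G2 phase and mitosis (G2/M), and each of the 42 has 1 row among the 57010 genes of the count table. Bone marrow was flushed from the femurs and mandibles of C57BL/6 mice (C57BL/6J in the methods) that were 1 year old, monocytes were enriched with a kit whose antibodies hold back other marrow cells on a magnetic column, and total RNA of the flow through was sequenced. There were 6 libraries, 3 of femur-derived monocytes (S13, S15, S18) and 3 of mandibular-derived monocytes (S16, S19, S23). All came from the same strain at the same age, and the labels name neither a mutation nor a treatment. Mice of both sexes were used in the study, but the labels give no sex, animal or number of mice for any library, so the p-values measure the spread between libraries, which may be technical.

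Before DNA is copied, CDC6 and CDT1 load the ring-shaped MCM helicase onto origins, and CDC45 and the GINS complex turn it into a moving machine. Cyclin E and the E2F transcription factors open this phase, while ribonucleotide reductase and thymidylate synthase supply the building blocks. Later, CDK1 with cyclins A and B drives cells into mitosis, where Aurora and Polo kinases build the spindle, the BUB and MAD proteins hold back the anaphase-promoting complex until chromosomes are attached, and kinesins and PRC1 organise the spindle and the midzone. Circulating monocytes hardly divide, whereas their precursors in the marrow, and those of granulocytes and red cells, divide actively.

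The libraries held 15718782 (S23) to 25371474 (S18) counts on genes. The label of S23 begins with Kmansky and those of the others with Mansky, and what this difference stands for is not given. Every member was well covered, with 250 to 30335 counts in any library, and all 42 passed the filter on low counts, which left 18114 genes for testing. Monocyte transcripts were present in all 6 libraries, from 369 to 849 counts per 1000000 (CPM) for Ccr2 and from 182 to 474 CPM for Ly6c2. Other cells were present as well. The 10 markers of mesenchymal cells and osteoblasts summed to 164 to 198 CPM in femur libraries. In mandible libraries S16, S19 and S23 they summed to 8765, 11465 and 15031 CPM. The 8 markers of dental epithelium summed to 0.221 to 3.18 CPM in femur libraries, against 5772, 7345 and 11315 CPM in S16, S19 and S23. Xist, the RNA of the inactive X chromosome, was at 1441 CPM in S23 but did not exceed 0.553 CPM elsewhere. S23 held no count of 4 genes of the Y chromosome (Uty, Kdm5d, Eif2s3y, Ddx3y), whereas each of the other 5 held at least 2772. By this RNA S23 was female and the other 5 were male, so the only female library was of the mandible. The part of sex in the differences between sites was not tested. In bulk RNA, fewer dividing cells and less RNA of a gene per dividing cell cannot be told apart.

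The members were mostly lower in the mandible libraries, by a moderate amount. The fitted log2 fold change of mandible over femur was below 0 for 41 of the 42 members, against 52.2% of all tested genes, and its median was -0.46, against -0.04 over all tested genes. It ran from -1.24 for Ccne2 to 0.03 for Cenpe, and without S23 the median was -0.31, against -0.12 over all genes. A gene was called when the quasi-likelihood test of edgeR, adjusted over all tested genes by Benjamini and Hochberg's method, gave p under 0.05 and the sites differed at least 2-fold. By this rule 2 members, Cdk1 and Aurka, were called lower in the mandible, which is 4.76% of the members against 1.3% of all tested genes. None was called higher by edgeR or DESeq2 (3.88% of all tested genes with edgeR and 6.02% with DESeq2), and no member had an unadjusted p under 0.05 in that direction (9.18% of all tested genes). An unadjusted p under 0.05 with a lower level in the mandible was found for 13 members (31.0%), where 7.25% of all genes had one. In 13 members, of which 10 were among those with such a p, all 3 mandible libraries lay below all 3 femur libraries, which was so in 11.5% of all tested genes. No member had them all above (12.7% of all tested genes).

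**Figure D1:**
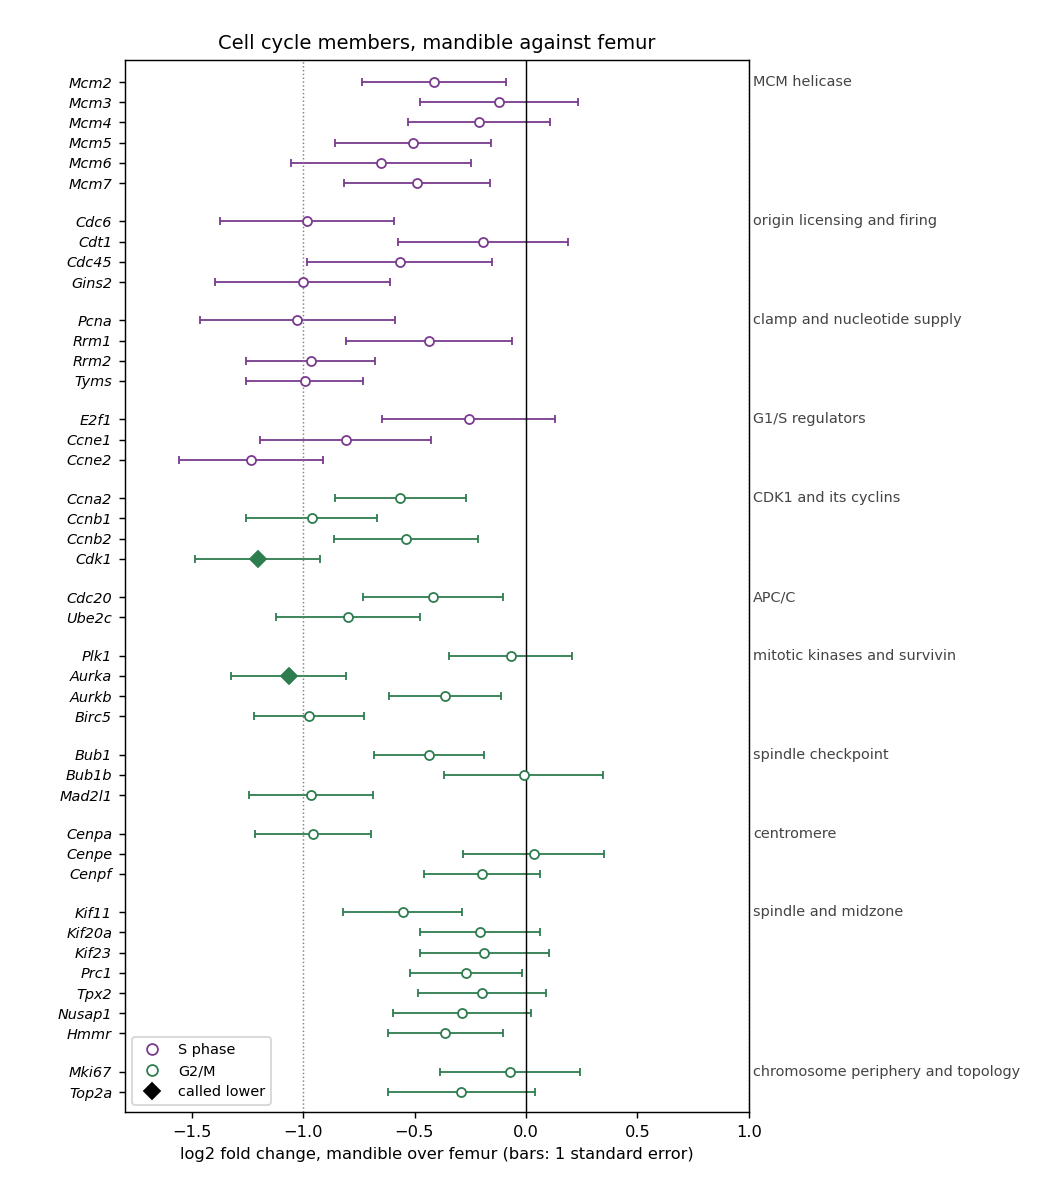
Log2 fold change of each of the 42 members, mandible over femur, with bars of 1 standard error derived from the edgeR fit of 3 against 3 libraries, grouped by role (S phase in purple, G2/M in green, filled diamonds for the called members). Points lie left of 0 for 41 members, and Cdk1 and Aurka are the 2 called.

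Cdk1 encodes the kinase that starts mitosis and lies on chromosome 10 from 69335146 to 69352938 of GRCm38. Its level was 150.1, 87.7 and 145 CPM in femur libraries S13, S15 and S18, against 61.2, 57.3 and 47.8 CPM in mandible libraries S16, S19 and S23. Each femur library was above each mandible library, and S15 was the lowest of the femur. The log2 fold change was -1.20 (standard error 0.28, edgeR adjusted p = 0.0299), that is 2.30-fold higher in the femur, and the exact two-sided permutation test gave p = 0.1, the smallest that 3 against 3 libraries allow. Aurka, which encodes the Aurora kinase of the spindle poles, lies on chromosome 2 from 172356190 to 172370535. It was at 85.5, 61.6 and 83.2 CPM in femur libraries S13, S15 and S18, against 37.8, 41.4 and 30.8 CPM in mandible libraries S16, S19 and S23. These groups did not overlap either, and differed by -1.07 on the log2 scale (standard error 0.26, edgeR adjusted p = 0.0367). Each call was lost when any 1 of S13, S18, S16, S19 and S23 was left out, while the size of the difference changed little. In these 5 fits the log2 fold change of Cdk1 ran from -1.28 to -1.07 (edgeR adjusted p from 0.0868 to 0.152) and that of Aurka from -1.21 to -0.98 (edgeR adjusted p from 0.0988 to 0.188). No member was called in these 5 fits (edgeR), where 0.308%, 0.471%, 0.564%, 0.29% and 0.833% of all genes were called lower. Without S15, 9 members were called lower by edgeR (3.24% of all genes), with Birc5, Ccne2, Gins2, Mad2l1, Pcna, Rrm2 and Tyms added, and without the filter on low counts there were also 9 (1.35% of all genes).

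**Figure D2:**
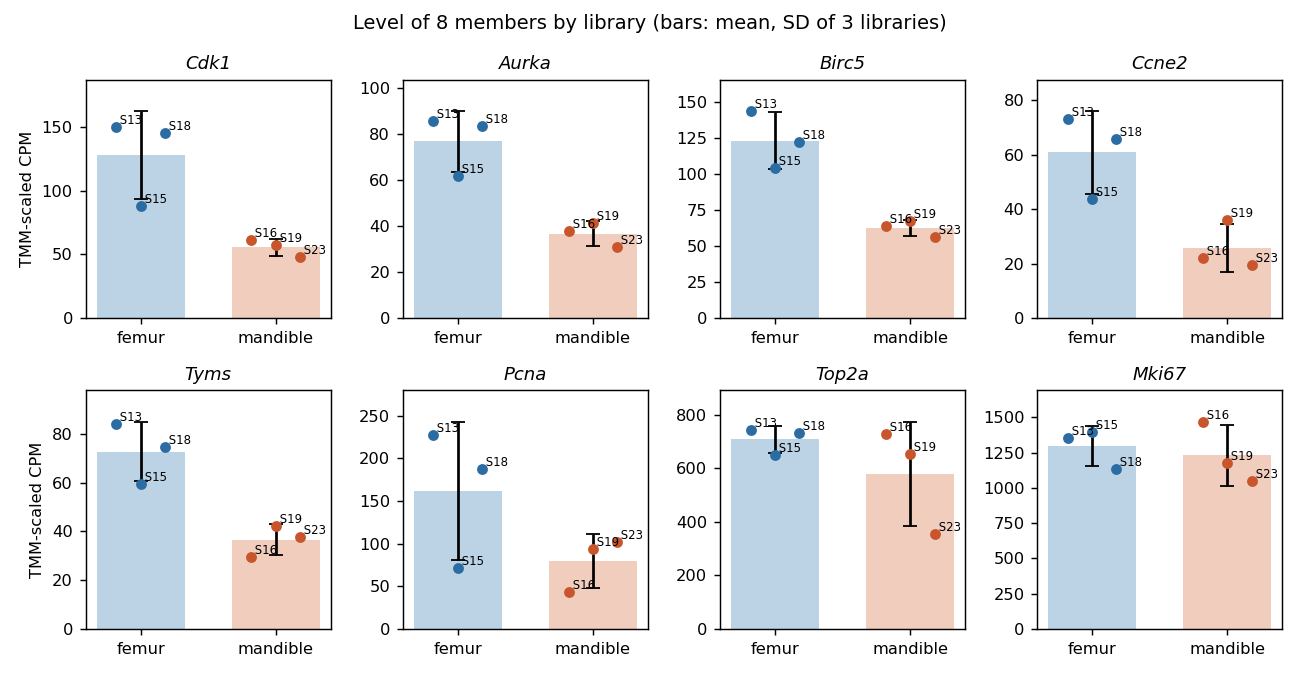
TMM-scaled CPM of 8 members in each library, with bars for the mean and the SD of 3 libraries per site. The sites do not overlap for Cdk1, Aurka, Birc5, Ccne2 and Tyms, while they overlap for Pcna, Top2a and Mki67.

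The promoters of cell cycle genes are known for a few short sequence elements. CCAAT boxes bind NF-Y, the cell cycle genes homology region (CHR) recruits complexes that repress G2/M genes in resting cells, and E2F sites serve S phase genes. The letters were searched on both strands in the 250 bases before the start site for the 35 members that have a window in RefSeq (GRCm38.p6), as CCAAT, as TTTGAA or TTCGAA for the CHR, and as TTTCCCGC, TTTGGCGC, TTTCGCGC or TTTGCCGC for E2F. Matches of the E2F letters on opposite strands can overlap, as both in Mcm5 do. A CCAAT box was found in 18 of 21 G2/M and 9 of 14 S phase windows, against 37.5% of all 27025 genes with a window. The CHR letters were in 9 of 21 and 3 of 14 (all genes 19.6%), and the E2F letters in 1 of 21 and 4 of 14 (all genes 2.16%). These are matches of letters, not shown to be bound here. The last 200 bases before the start site are printed 5′ to 3′ for the called members and for the S phase and G2/M members with a window and the highest level per length over all 6 libraries, Mcm3, Mcm5, Mki67 and Top2a, with every match in capitals.
Cdk1 (chr10:69352913-69353112, minus strand): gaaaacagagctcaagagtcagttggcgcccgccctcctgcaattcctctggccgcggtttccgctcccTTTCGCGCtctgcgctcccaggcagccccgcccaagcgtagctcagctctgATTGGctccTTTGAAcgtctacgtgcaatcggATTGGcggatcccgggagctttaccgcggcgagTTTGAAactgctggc
Aurka (chr2:172370571-172370770, minus strand): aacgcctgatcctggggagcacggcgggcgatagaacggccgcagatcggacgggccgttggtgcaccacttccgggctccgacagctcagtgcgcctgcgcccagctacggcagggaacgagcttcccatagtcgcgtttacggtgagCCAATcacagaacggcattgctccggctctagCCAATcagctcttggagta
Mki67 (chr7:135716380-135716579, minus strand): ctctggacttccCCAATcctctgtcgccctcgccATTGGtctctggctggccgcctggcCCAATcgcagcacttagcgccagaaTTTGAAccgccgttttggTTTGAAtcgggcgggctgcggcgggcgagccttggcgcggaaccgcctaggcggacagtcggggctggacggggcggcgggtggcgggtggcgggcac
Top2a (chr11:99024190-99024389, minus strand): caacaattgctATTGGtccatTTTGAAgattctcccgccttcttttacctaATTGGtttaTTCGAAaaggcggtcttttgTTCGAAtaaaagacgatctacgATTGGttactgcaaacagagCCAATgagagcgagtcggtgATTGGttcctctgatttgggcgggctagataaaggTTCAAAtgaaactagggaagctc
Mcm3 (chr1:20820313-20820512, minus strand): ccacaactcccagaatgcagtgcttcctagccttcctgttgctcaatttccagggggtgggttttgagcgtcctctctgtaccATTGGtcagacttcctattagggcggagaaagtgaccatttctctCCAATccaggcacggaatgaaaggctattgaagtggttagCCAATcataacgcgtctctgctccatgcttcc
Mcm5 (chr8:75109309-75109508, plus strand): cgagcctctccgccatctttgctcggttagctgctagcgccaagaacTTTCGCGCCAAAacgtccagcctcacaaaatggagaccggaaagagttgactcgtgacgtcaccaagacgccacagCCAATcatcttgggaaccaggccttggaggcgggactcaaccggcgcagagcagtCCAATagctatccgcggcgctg
In the stretch of Cdk1 there were 2 CHR matches, 2 CCAAT boxes and 1 E2F match, and in that of Aurka 2 CCAAT boxes alone. Mki67 had 2 CHR matches with 3 CCAAT boxes and Top2a had 4 with 5, and neither gene was called. Over the 12 members with the CHR letters in the 250 bases, the log2 fold change ran from -1.20 for Cdk1 to -0.01 for Bub1b. A link between these letters and the fold change was not tested. The stretch of Mcm3 held 3 CCAAT boxes, and that of Mcm5 2 CCAAT boxes and 2 E2F matches.

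Among the S phase members, the sites did not overlap for cyclin E2 and 2 genes of nucleotide supply, Rrm2 and Tyms, and overlapped for the other 14, where 11.5% of all tested genes were without overlap in this direction. All 17 had a log2 fold change below 0, with a median of -0.57, which was -0.32 without S23 and -0.36 without S13. None was called by edgeR (1.3% of all tested genes were called lower), 6 had an unadjusted p under 0.05 (7.25% of all tested genes, lower), and DESeq2 called 1, Ccne2 (2.52% of all tested genes were called lower by DESeq2). Ccne2, which encodes cyclin E2, a partner of CDK2 at the entry to S phase, was at 72.9, 43.6 and 65.8 CPM in femur libraries S13, S15 and S18, against 22.1, 35.9 and 19.4 CPM in mandible libraries S16, S19 and S23. The sites did not overlap (log2 fold change -1.24, standard error 0.32, edgeR adjusted p = 0.0523), but the adjusted p missed the threshold. Its exons share 17.4% of their bases with Ints8 on the other strand, so some of its counts are uncertain. Ccne1, for cyclin E1, had -0.81 (standard error 0.38) with overlapping sites, and E2f1, whose protein switches on S phase genes, had -0.26 (standard error 0.39).

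Tyms, for thymidylate synthase, was measured at 72.7 ± 12.3 CPM (SD, n = 3) over femur libraries and 36.5 ± 6.42 CPM (n = 3) over mandible libraries, and Rrm2, for the small subunit of ribonucleotide reductase, at 188 ± 50.2 CPM (SD, n = 3) over femur libraries and 96.4 ± 18.6 CPM (n = 3) over mandible libraries. Neither gene overlapped between sites, with log2 fold changes of -0.99 and -0.97 and edgeR adjusted p of 0.0554 and 0.0924. Rrm1, for the large subunit of the same enzyme, had -0.43 (standard error 0.37, edgeR adjusted p = 0.675), and whether the subunits differed from each other was not tested. Pcna, the sliding clamp of the polymerases, was at 227, 71.6 and 187 CPM in femur libraries S13, S15 and S18, against 42.8, 93.8 and 102 CPM in mandible libraries S16, S19 and S23. The low femur library S15 lay below mandible libraries S19 and S23, and the fitted -1.03 came with a standard error of 0.44 (edgeR adjusted p = 0.262). The pseudogene Pcna-ps2 took 54 to 379 counts per library, and reads shared with such a copy can be assigned either way.

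The 6 helicase genes Mcm2 to Mcm7 overlapped between sites without exception, and their log2 fold changes ran from -0.65 for Mcm6 to -0.12 for Mcm3 with standard errors of 0.32 to 0.40. None had an unadjusted p under 0.05 with edgeR. Mcm6 was at 343, 150.4 and 279 CPM in femur libraries S13, S15 and S18, against 179, 229 and 84.1 CPM in mandible libraries S16, S19 and S23. Here S23 held the lowest and S13 the highest level, while S15 of the femur was below S16 and S19 of the mandible. Of the genes that load and start the helicase, Cdc6 had -0.98 (standard error 0.39, edgeR adjusted p = 0.22), Gins2 -1.0 (standard error 0.39, edgeR adjusted p = 0.215), Cdc45 -0.57 and Cdt1 -0.19. Gins2 shares 67.3% of its exon bases with Gse1 on the other strand, and whether strand was used in counting is not given in the sources used here. Cdt1 was at 44.7, 45.2 and 51.8 CPM in femur libraries S13, S15 and S18, against 57.8, 48.4 and 17.6 CPM in mandible libraries S16, S19 and S23, where S23 alone was low.

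In the G2/M group the median log2 fold change was -0.36, 24 of 25 members lay below 0, and single members ran from -1.20 for Cdk1 to 0.03 for Cenpe. In 10 members, among them Aurkb, Bub1 and Ube2c, all mandible libraries lay below all femur libraries (11.5% of all tested genes). An unadjusted edgeR p under 0.05 was found for 7 (7.25% of all tested genes, lower). Birc5, which encodes survivin, a subunit of the chromosomal passenger complex, was at 144, 104 and 122 CPM in femur libraries S13, S15 and S18, against 64.2, 67.4 and 56.6 CPM in mandible libraries S16, S19 and S23. Its adjusted p passed (edgeR adjusted p = 0.0447), as in 1.32% of all tested genes lower in the mandible at any fold, but its log2 fold change of -0.97 (standard error 0.25) was short of the fold threshold. Cenpa, for the histone variant that marks centromeres, was at 160.3 ± 30.9 CPM (SD, n = 3) over femur libraries and 82.6 ± 12.4 CPM (n = 3) over mandible libraries, Mad2l1, for the checkpoint protein MAD2, at 80.3 ± 19.7 CPM (SD, n = 3) over femur libraries and 41.1 ± 6.99 CPM (n = 3) over mandible libraries, and Ccnb1, for cyclin B1, at 79.9 ± 8.43 CPM (SD, n = 3) over femur libraries and 41.0 ± 14.6 CPM (n = 3) over mandible libraries. For these 3 the sites did not overlap, and the log2 fold changes were -0.96, -0.97 and -0.96 (edgeR adjusted p = 0.0638, 0.0785 and 0.0965). Ube2c, the ubiquitin-conjugating partner of the anaphase-promoting complex, had -0.80 (standard error 0.32), and 22.8% of its exon bases are shared with Tnnc2 on the other strand.

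For Mki67, Top2a and several other G2/M members the fitted difference was smaller than its standard error. Mki67 lies on chromosome 7 from 135689784 to 135716361, encodes the Ki-67 protein that coats mitotic chromosomes, and is widely stained as a marker of dividing cells. It was at 1350.5, 1398 and 1133 CPM in femur libraries S13, S15 and S18, against 1470.0, 1176 and 1047 CPM in mandible libraries S16, S19 and S23. The highest and the lowest of the 6 libraries were both from the mandible, and the log2 fold change was -0.07 (standard error 0.31, edgeR adjusted p = 0.956). Top2a, for the topoisomerase that untangles sister chromatids, lies on chromosome 11 from 98992943 to 99024189 and was at 744, 648 and 729 CPM in femur libraries S13, S15 and S18, against 726, 652 and 356 CPM in mandible libraries S16, S19 and S23. S16 and S19 lay within the femur range, and S23 alone was below it. The log2 fold change was -0.29 (standard error 0.33, edgeR adjusted p = 0.773).

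Bub1b, for the checkpoint kinase BUBR1, had -0.01 (standard error 0.36) and 0.0032 with RLE size factors. Cenpe, for a kinesin of the kinetochore, was at 201, 286 and 171 CPM in femur libraries S13, S15 and S18, against 312, 184 and 178 CPM in mandible libraries S16, S19 and S23, which is a log2 fold change of 0.03 (standard error 0.32) that was -0.16 once the trend with gene length was taken out. In both genes S16 was the highest of all libraries. Plk1, for Polo-like kinase 1, had -0.07, Cenpf -0.20, and Aurkb, for the Aurora kinase of the passenger complex, -0.36, with standard errors of 0.28, 0.26 and 0.25. The 7 genes of spindle and midzone proteins (Kif11, Kif20a, Kif23, Prc1, Tpx2, Nusap1 and Hmmr) lay between -0.55 for Kif11, the motor that pushes spindle poles apart, and -0.19 for Kif23, a motor of the midzone. Of these 7, 1 had sites that did not overlap (11.5% of all tested genes), which was Kif11 with 290.3, 256 and 242 CPM in femur libraries S13, S15 and S18, against 212, 187 and 138 CPM in mandible libraries S16, S19 and S23. The remaining members, Ccna2, Ccnb2, Cdc20 and Bub1, had -0.56, -0.54, -0.42 and -0.44, none called. Of these and the spindle genes, Kif20a shares 29.3% of its exon bases with Cdc23, Ccna2 12.5% with Exosc9 and Prc1 11.1% with Rccd1, each on the other strand, so that their counts are uncertain too. A missed threshold does not show equal levels.

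The libraries of a site were not alike. S23 had the lowest level of the 6 libraries in 33 of the 42 members (78.6%), where it was lowest in 24.7% of all tested genes. The same library had the highest sums of the mesenchymal and osteoblast markers (15031 CPM) and of the dental epithelium markers (11315 CPM). The part of such cells in its low levels was not tested. S13 had the highest level in 24 members, for which the share over all tested genes was not computed. Summed over the 17 S phase members, the level was 2703, 1519.7 and 2302 CPM in femur libraries S13, S15 and S18, against 1794, 1705 and 947 CPM in mandible libraries S16, S19 and S23. The femur library S15 was thus below S16 and S19. Summed over the 25 G2/M members it was 5221, 4978 and 4785 CPM in femur libraries S13, S15 and S18, against 4913, 4062 and 3226 CPM in mandible libraries S16, S19 and S23, where S15 was among the high libraries and S16 lay inside the femur range. As a mean over members of log2(CPM + 1), S phase members were 6.61 ± 0.36 in the femur and 5.95 ± 0.45 in the mandible, and G2/M members 7.10 ± 0.09 and 6.62 ± 0.27 (SD, n = 3 in each).

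**Figure D3:**
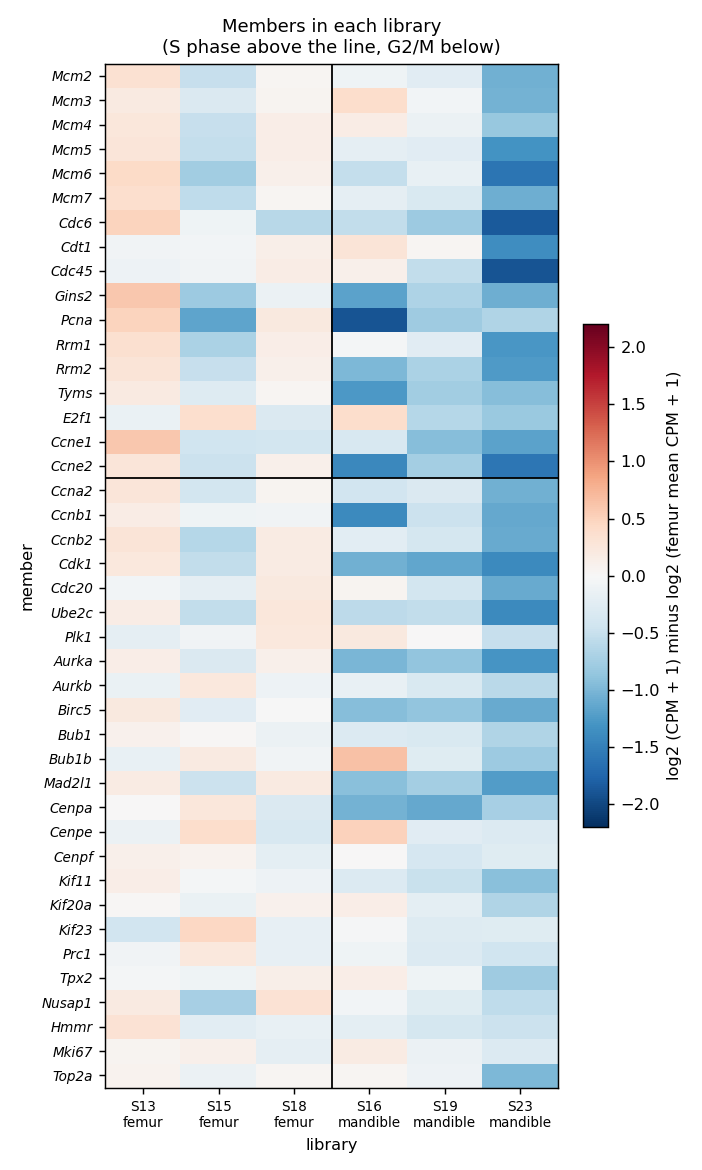
Level of each member in each library, as log2(CPM + 1) less the log2 of the femur mean plus 1, with S phase members above and G2/M members below the horizontal line and femur libraries left of the vertical line. S23 is the bluest column, S15 is pale blue in most S phase members, and S16 has both the lowest Pcna and the highest Bub1b and Cenpe of the 6 libraries.

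The balance of the phases was read as the S phase mean less the G2/M mean of log2(CPM + 1). It was -0.24, -0.78 and -0.46 in femur libraries S13, S15 and S18, against -0.62, -0.50 and -0.88 in mandible libraries S16, S19 and S23. The sites overlapped in this measure, with means of -0.49 ± 0.27 and -0.67 ± 0.19 (SD, n = 3 in each), so that the difference between sites was smaller than the spread between libraries. S15 and S23 had the least S phase level relative to G2/M. A level under 50% of the femur mean was found in 22 members in S23, 8 in S16 and 2 in S19. The shares over all tested genes were not computed for these counts, so they only describe the members.

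Markers of other marrow cells were read beside these sums. The 8 markers of granulocyte progenitors, among them Mpo and Elane of the primary granules, summed to 5161, 1123 and 5611 CPM in femur libraries S13, S15 and S18, against 1912, 2089.6 and 767 CPM in mandible libraries S16, S19 and S23. S13 and S18 were the highest and S15 and S23 the lowest in this sum, as they were in the S phase sum. This order was not particular to them. The 8 mature neutrophil markers summed to 11142, 1159.9 and 8031 CPM in femur libraries S13, S15 and S18, against 3829, 6177 and 1996 CPM in mandible libraries S16, S19 and S23, and S15 and S23 were also the lowest in the sums of monocyte markers and of stem and progenitor markers. All 8 granulocyte progenitor markers had a log2 fold change below 0 (median -1.53), and 1 was called lower. Of the mature neutrophil markers 7 lay below 0 (median -0.59), and none was called. Over all tested genes 52.2% lay below 0 and 1.3% were called lower. The 10 erythroid markers, such as Hba-a1 and Hba-a2 of the globins, summed to 1912, 309 and 382 CPM in femur libraries S13, S15 and S18, against 262, 168 and 197 CPM in mandible libraries S16, S19 and S23, with a median log2 fold change of -1.81 and 4 called lower. S13 alone was high in erythroid markers. The 8 megakaryocyte markers, led by Pf4 and Itga2b, summed to 563 to 896 CPM in femur libraries against 75.5 to 107 CPM in mandible libraries, with 6 called lower. Markers of stem and progenitor cells such as Kit and Cd34 summed to 91.2 to 151 CPM in femur libraries against 86.8 to 142 CPM in mandible libraries, those of B cell progenitors to 17.8 to 26.7 CPM in femur libraries against 27.0 to 48.4 CPM in mandible libraries with Vpreb1 at 0 in 5 of 6 libraries, those of T and NK cells to 44.5 to 146 CPM in femur libraries against 48.9 to 116 CPM in mandible libraries, those of dendritic cells to 373 to 588 CPM in femur libraries against 355 to 719 CPM in mandible libraries, and the 10 monocyte markers to 7979.6 to 14746 CPM in femur libraries against 6816 to 12193 CPM in mandible libraries. The part of these cells in the levels of the members was not tested.

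**Figure D4:**
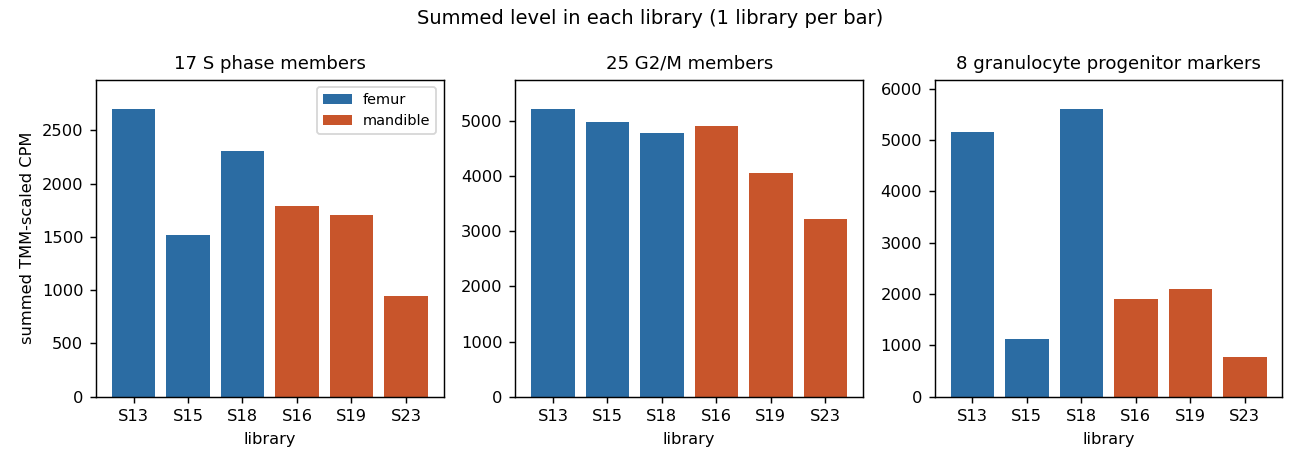
Summed TMM-scaled CPM of the S phase members, the G2/M members and the granulocyte progenitor markers, with 1 bar per library (femur in blue, mandible in orange). S15 and S23 are the lowest in the first and the third panel, whereas S15 is close to S13 and S18 in the second.

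Over all tested genes the fold change rose with length, from a median log2 value of -0.67 in the shortest of 20 length bins to 0.28 in the longest. The 21 shorter members (1531 to 4217 bases) had a median of -0.56 and the 21 longer members (4275 to 15433 bases) one of -0.41, while all tested genes within these lengths had -0.11 and 0.10. With the trend removed from each library the medians were -0.50 and -0.53, and 40 of the 42 members lay below 0, with Plk1 and Bub1b above. Cdk1 was then called again (edgeR adjusted p = 0.0334) together with Cenpa (0.0435) and Tyms (0.0449), whereas Aurka was not (0.076), with 0.646% of all genes called lower in this fit. The value of Mki67, a long gene, moved from -0.07 to -0.34 and that of the short Ccnb2 from -0.54 to -0.15.

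**Figure D5:**
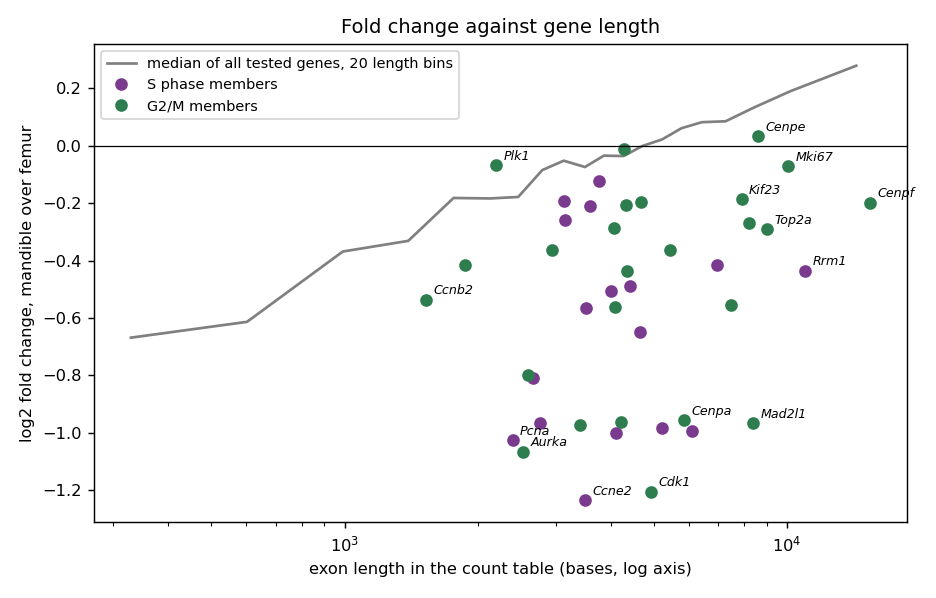
Log2 fold change of each member (mandible over femur) against its exon length in bases on a log axis, with the grey line for the median of all tested genes in 20 length bins. Most members lie below the line. The long members Cenpe, Mki67, Cenpf, Kif23 and Top2a lie closer to 0 than Cdk1, Ccne2 and Aurka, but Mad2l1, also long, lies at -0.97. Over the 42 members the Pearson correlation of the fold change with log2 length was 0.23.

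Levels of different members were compared only per length, as counts per kilobase scaled to 1000000 per library and averaged over the 6 libraries. On this scale Mki67 (232) and Top2a (128) were the most abundant, and Gins2 (9.50) and Mad2l1 (12.3) the least, in the mean of each site as well. The order next to Top2a differed by site. In the femur mean it was Rrm2 (104), Ccnb2 (102), Pcna (98.0) and Mcm3 (95.5), and in the mandible mean Mcm3 (114), Ccnb2 (94.2), Bub1b (90.7) and Mcm5 (84.7). This scale has no TMM scaling, and the direction of some members depends on it. Several with a fitted fold change below 0, among them Mki67, Top2a and Mcm3, had a higher mean in the mandible here. Others, such as Cdk1 and Aurka, were lower in the mandible on both scales. The called members were in between, with 31.2 for Cdk1 and 38.4 for Aurka. All of the 42 together took 0.632 to 0.715% of the counts of a femur library and 0.464 to 0.651% of those of a mandible library.

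Other genes of the same machinery were taken from lists of further S phase genes, further G2/M genes, regulators of G1 and the RB and E2F pathway, and genes of arrest and quiescence. Of 44 further S phase genes (origin recognition, polymerases, clamp loaders, ligase and others) all were tested, 41 lay below 0, the median was -0.63, and 4 were called lower and none higher. Over all tested genes 52.2% lay below 0, 1.3% were called lower and 3.88% higher. Its members with the most CPM were Dnmt1, the maintenance methyltransferase (-0.02, standard error 0.32), Lig1, the replicative ligase (-0.15, 0.33), and Uhrf1, the partner of Dnmt1 (-0.25, 0.29), none of them called. The largest among the called were Rfc4, a subunit of the clamp loader, with -1.63 (standard error 0.40, edgeR adjusted p = 0.0373), Dut, which clears dUTP, with -1.47 (standard error 0.37, edgeR adjusted p = 0.0462), and Gmnn, the inhibitor of CDT1, with -1.32 (standard error 0.33, edgeR adjusted p = 0.0426). Of the 64 further G2/M genes 62 lay below 0, with a median of -0.51 and 2 called lower. Cks2, a subunit of CDK complexes, was at 105, 52.4 and 84.5 CPM in femur libraries S13, S15 and S18, against 13.9, 26.5 and 22.0 CPM in mandible libraries S16, S19 and S23. The sites were far apart, with -1.96 (standard error 0.34, edgeR adjusted p = 0.00657). Zwilch, of the kinetochore, had -1.28 (edgeR adjusted p = 0.0278), while the genes with the most CPM, Smc4 of condensin, Incenp of the passenger complex and the tubulin gene Tubb4b, had -0.29, -0.07 and -1.10 and were not called. The counts turned on single libraries. Of the further S phase genes none was called without any 1 of S13, S18, S16, S19 and S23, and 5 without S15, and of the further G2/M genes 1 was called without any 1 of S13, S18, S16 and S19, 2 without S23 and 7 without S15.

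Of the 21 regulators of G1 and of the RB and E2F pathway, 15 lay below 0 (52.2% of all tested genes), with a median of -0.31. Called lower was 1 of them (1.3% of all tested genes). Ccnd3, E2f2 and Tfdp1, those with the most CPM, had -0.29, -0.08 and -0.72, none called. Cdk2, the kinase that works with cyclins E and A, was at 89.3, 98.0 and 81.8 CPM in femur libraries S13, S15 and S18, against 41.6, 51.2 and 38.0 CPM in mandible libraries S16, S19 and S23, and was the gene called lower (-1.04, standard error 0.25, edgeR adjusted p = 0.0321). It was not called without any 1 of S13, S18, S16, S19 and S23, as no gene of this list was then called, and 2 were called without S15. Genes of arrest and quiescence lay on both sides of 0, with 11 of 18 tested above it and a median of 0.08. An unadjusted edgeR p under 0.05 was found for 4 in the higher direction (9.18% of all tested genes) and 0 in the lower (7.25%). In 5 all mandible libraries lay above all femur libraries (12.7% of all tested genes), and in 0 below (11.5%). The list summed to 1132 to 1255 CPM in femur libraries against 1317 to 1543 CPM in mandible libraries. The anti-proliferative genes Btg1 and Btg2 and the CDK inhibitor gene Cdkn1b, which had the most CPM, were not called, with 0.35, 0.52 and 0.06. Cdkn1c, which encodes a CDK inhibitor, was at 1.77, 0.276 and 1.55 CPM in femur libraries S13, S15 and S18, against 25.5, 13.01 and 19.7 CPM in mandible libraries S16, S19 and S23. It was called higher, at 4.02 on the log2 scale (standard error 0.67, edgeR adjusted p = 0.00504). No other gene of the list was called, where 3.88% of all tested genes were called higher, and 2 were called without S15. The 10 mesenchymal and osteoblast markers rose in the same libraries, with a median of 4.55 and all called higher, and their part in the level of Cdkn1c was not tested.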

How the data were processed

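Per the labels and the methods, read pairs were trimmed (Trimmomatic) and aligned to a genome named as GRCm38 (HISAT2 2.1.0), and the authors deposited raw counts of reads per gene made with featureCounts. Its settings for strand and multiply mapped reads are not given in the sources used here. The interval of 1 of the 42 members in the deposited table lay inside its GENCODE M21 (GRCm38) gene, so the build of the table is in doubt. M21 supplied the positions and exon overlaps, matched on Ensembl identifiers, while exon lengths came from the table and may belong to another annotation. The test was edgeR's (version 4.0.16, R 4.3.3) quasi-likelihood test with TMM scaling, a prior count of 0.125, the femur as baseline and no covariates, over the 18114 genes that filterByExpr kept (smallest count 10, smallest total 15). Calls needed an adjusted p (Benjamini-Hochberg) below 0.05 and at least a 2-fold difference. CPM are TMM-scaled. Alternatives were DESeq2 1.42.0, RLE size factors, no filter, a loess trend (span 0.4) on gene length removed, and each library left out. Tests were tried on simulated data.

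The members and the gene lists were chosen with earlier results of these data known. Named were all members, of each pathway list the 3 most abundant genes by mean CPM and the called genes of largest fold change (at most 3), and of each marker list the first 2. Ccr2, Vpreb1 and Xist were named as checks of the libraries, and the promoters of Cdk1 and Aurka were added after their values were seen.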

Additional observations from a re-analysis of the deposited data

How the results depend on the processing

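Members called higher numbered 0 under every alternative run, and the medians of the S phase and G2/M members stayed below 0 in all of them. Without the filter, however, the median over all 42225 genes was -1.09. In that fit the medians of the S phase members (-0.63) and the G2/M members (-0.41) thus lay above that of all genes. The number of members called lower, 2 with all 6 libraries, was 9 without the filter on low counts (S phase 5, G2/M 4; 8 of the 9 were also called without S15), and S phase calls were 1 with DESeq2 and 1 with the length trend removed. Leaving out 1 library gave 0 to 9 members called lower (S phase 0 to 5, G2/M 0 to 4), 9 to 21 with an unadjusted p under 0.05, and a median of -0.68 to -0.31 over all members. Further S phase genes called lower numbered 7 with DESeq2, 1 with the length trend removed and 0 to 5 with 1 library left out. Further G2/M genes called lower numbered 7 with DESeq2, 5 without the filter and 1 to 7 with 1 library left out, G1 regulators called lower 0 to 2 with 1 library left out, and arrest genes called higher 2 with DESeq2, 2 without the filter and 1 to 2 with 1 library left out. Over all genes 2.52% were called lower with DESeq2, 1.35% without the filter and 0.646% with the length trend removed. With 1 library left out this share ran from 0.29% (S19) to 3.24% (S15). The cause of these shifts was not tested. Signs turned for members near 0. Bub1b was 0.0032 with DESeq2, 0.0032 with RLE size factors and 0.0048 with the length trend removed. Plk1 was 0.15 with the length trend removed, and Cenpe was -0.017 without the filter and -0.16 with the length trend removed. With 1 library left out the log2 fold change ran over -0.46 to 0.13 for Mcm3, -0.51 to 0.11 for Cdt1, -0.23 to 0.077 for Plk1, -0.50 to 0.21 for Bub1b, -0.27 to 0.23 for Cenpe and -0.35 to 0.067 for Kif23. Library levels moved by less than the spread between libraries with RLE size factors or a pseudocount of 0.25. No paired analysis was run, because the labels give no animal and the library numbers do not show which libraries, if any, came from the same mice. The 3 libraries per site limit the precision of every value.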
